A study of Mus musculus with 24 samples.

Results

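The genes described here encode the plasma proteins of complement, blood clotting and clot lysis that the liver makes. They are 38 gene symbols listed by function, out of 23240 rows in a table of read counts from mouse liver. The rule that lists them uses no measured value, but they were chosen with earlier results of these data known. Of these, 17 belong to complement, 19 to coagulation and fibrinolysis, and 2 (Serping1 and Vtn) act in both. All 38 passed the filter on low counts, with 120 counts or more in every library.

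Complement is a chain of proteases that marks microbes and dying cells: the classical and lectin routes start it through C1 or through mannose-binding lectins, the alternative route amplifies it on C3, and the terminal proteins C5 to C9 build a pore in membranes. Coagulation is a second protease chain, in which vitamin K-dependent zymogens end in thrombin, and thrombin turns fibrinogen into fibrin, which plasmin dissolves. Hepatocytes secrete most of both sets into blood, and several members, fibrinogen among them, are classical acute phase proteins whose synthesis rises in inflammation.

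RNA was sequenced from 24 livers of female NSG (NOD scid gamma) mice, which were 8 weeks old and lack mature lymphocytes. The mice had 2 tail vein injections a week over 5 weeks, and liver was collected 2 days after the last one. Injections held phosphate-buffered saline (PBS) or extracellular vesicles (EVs, membrane-bound particles shed by cells; about 10 µg a dose), and each of the 4 groups had 6 libraries. The EVs came from MCF10A, a non-cancerous human breast epithelial line, from MCF10A/miR-122, which carries the name of the microRNA miR-122, or from MDA-MB-231, a human breast cancer line. All mice shared the NSG background, and NOD strains are known to carry a frameshift in Hc, the gene of complement C5, so that C5 protein is lacking in every group. Each library was taken as 1 mouse, and p-values would measure technical spread if libraries shared a mouse.

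Groups are called by their treatment label. The names of the 6 MCF10A EV libraries also hold pBABE, a word that their sample titles leave out. The library names give the last 2 groups the opposite identities: the 6 libraries labelled MCF10A/miR-122 EV are named for MDA-MB-231 vesicles, and the 6 labelled MDA-MB-231 EV for MCF10A/miR-122 vesicles. Every value below belongs to the libraries with that label, and which vesicles those mice received cannot be settled here. Library totals ran from 21.3 to 33.7 M (mega) counts. The PBS and MCF10A EV libraries (21.3 to 29.3 M) also stood apart from the other 12 (26.8 to 33.7 M) along the first principal component, which held 23.8% of the variance, with scores of -22.3 to -5.42 against 5.86 to 26.3. For comparisons that cross these 2 sets, set and treatment cannot be told apart. Those within a set are MCF10A EV against PBS, and MDA-MB-231 EV against MCF10A/miR-122 EV. The tissue label fitted its markers: 10 hepatocyte markers summed to 102000 to 150000 CPM (counts per M counts of the scaled library) over the 24 libraries. No lymphocyte marker had more than 4 counts in a library.

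In PBS livers the members together took 3.92 to 4.83% of all counts, and their levels per kilobase of exon spread widely. C3, the protein on which all complement routes meet, was highest at 1610 ± 146 CPM per kilobase (SD, n = 6). The fibrinogen chains Fgg (1550 ± 131) and Fga (1320 ± 121) came next, followed by Vtn (1150 ± 79.6) and Fgb (1030 ± 99.2). The PBS ranges of C3 and Fgg overlapped, as did those of Fgg and Fga, so that the order of these neighbours was within their spread. At the low end stood Pros1 (12.4 ± 1.13), the lectin protease gene Masp1 (5.04 ± 0.695) and the terminal component gene C6 (2.12 ± 0.608). The median coagulation gene lay at 237 CPM per kilobase and the median complement gene at 101. Lengths are from an annotation of another build than the one the counts were made on, which limits levels compared between genes.

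**Figure D1:**
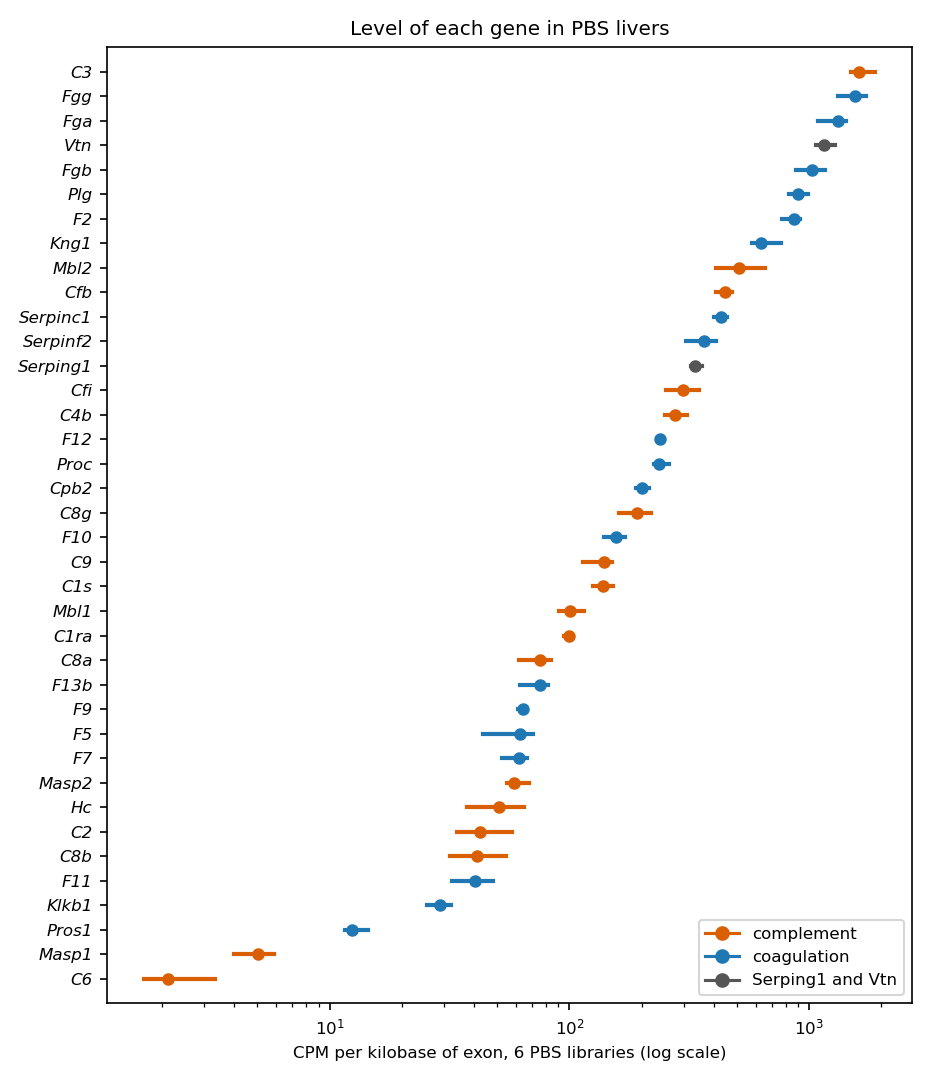
Level of each of the 38 genes in the 6 PBS livers, as CPM per kilobase of exon on a log scale, with the point at the mean and the line from the lowest to the highest library. C3 and the fibrinogen genes sit at the top, near or above 1030, and Masp1 and C6 at the bottom, at 5.04 and 2.12.

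Within a group, most members varied little between mice. The SD of log2 CPM within groups had a median of 0.17 over the complement genes and 0.15 over the coagulation genes, against 0.2 over the 13773 genes tested. F12, the gene of the contact factor XII, was the steadiest at 0.07. Masp1 was the most variable at 0.54, at percentile 98 of all tested genes, followed by C6 at 0.43 and Hc at 0.33. Complement therefore held both steady and variable genes (0.09 to 0.54), while coagulation genes ran from 0.07 to 0.24.

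All members called against PBS were higher after EVs, by 0.57 or less on the log2 scale. A gene is said to be called, to rise or to fall where its edgeR adjusted p was under 0.05 with all 24 libraries fitted, unless another tool or setting is named. With MCF10A EV, edgeR's quasi-likelihood test with Benjamini-Hochberg adjustment called 0 of 38 members (1.07% of all tested genes were called). At an unadjusted p under 0.05 there were 13, all higher, where 17.3% of all genes reached that p in either direction; DESeq2 called 2 (C8a and Serping1) and limma-voom 0. With MCF10A/miR-122 EV, 8 members (21.1%) rose and 0 fell. Of all genes 17.9% were called in either direction, a share near that of the members, and 8.35% were called higher. With MDA-MB-231 EV, 9 (23.7%) rose and 0 fell, against 11.7% of all genes in either direction and 5.33% higher. The 3 comparisons share the same 6 PBS libraries, so their agreement is not independent.

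The medians moved the same way as the calls. The median log2 fold change of the complement genes was 0.12 with MCF10A EV, 0.18 with MCF10A/miR-122 EV and 0.22 with MDA-MB-231 EV. For the coagulation genes it was 0.11, 0.14 and 0.14, and for all tested genes 0.01, 0 and 0. Values above 0 were seen for 32, 30 and 35 of the 38, against 51.7%, 50.2% and 50.6% of all tested genes. The scaling bears on these sizes. With library totals in place of TMM scaling factors, the median of all genes moved to -0.09, -0.09 and -0.12, the complement medians to 0.02, 0.08 and 0.09, and the coagulation medians to 0, 0.04 and 0.02. Then 22, 25 and 26 of the 38 were above 0. With these totals 1 member, Cfb, was called with MCF10A/miR-122 EV, and 1, C8a, with MDA-MB-231 EV.

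Single libraries also moved the counts. With MCF10A/miR-122 EV the count fell from 8 to 2 without PBS replicate 1 or 4, to 3 without MCF10A/miR-122 EV replicate 3 or 6, and to 5 without PBS replicate 5 or 6. With MDA-MB-231 EV it fell from 9 to 4 without PBS replicate 1, PBS replicate 4 or MDA-MB-231 EV replicate 2. With MCF10A EV it was 2 without MCF10A EV replicate 5, and 1 without PBS replicate 5, MCF10A/miR-122 EV replicate 5 or MDA-MB-231 EV replicate 2. Cfb and Kng1 stayed called with MCF10A/miR-122 EV whichever of the 24 libraries was left out, and C8a, C1s and Serping1 did so with MDA-MB-231 EV. Each of the other 6 calls was lost without any 1 of 3 to 20 libraries with MCF10A/miR-122 EV, and without any 1 of 2 to 6 with MDA-MB-231 EV. With only the 12 libraries compared in the fit, Cfb and Serping1 were the 2 members called with MCF10A/miR-122 EV, and 12 were called with MDA-MB-231 EV. Hepatocyte markers moved alongside: 4 of 10 were called higher in each of these 2 comparisons, with summed levels of 102000 to 129000 CPM with PBS, 105000 to 136000 with MCF10A EV, 123000 to 150000 with MCF10A/miR-122 EV and 130000 to 138000 with MDA-MB-231 EV. Their part in the members' changes was not tested. In bulk tissue a change in the number of cells of a type and a change in RNA per cell cannot be told apart.

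**Figure D2:**
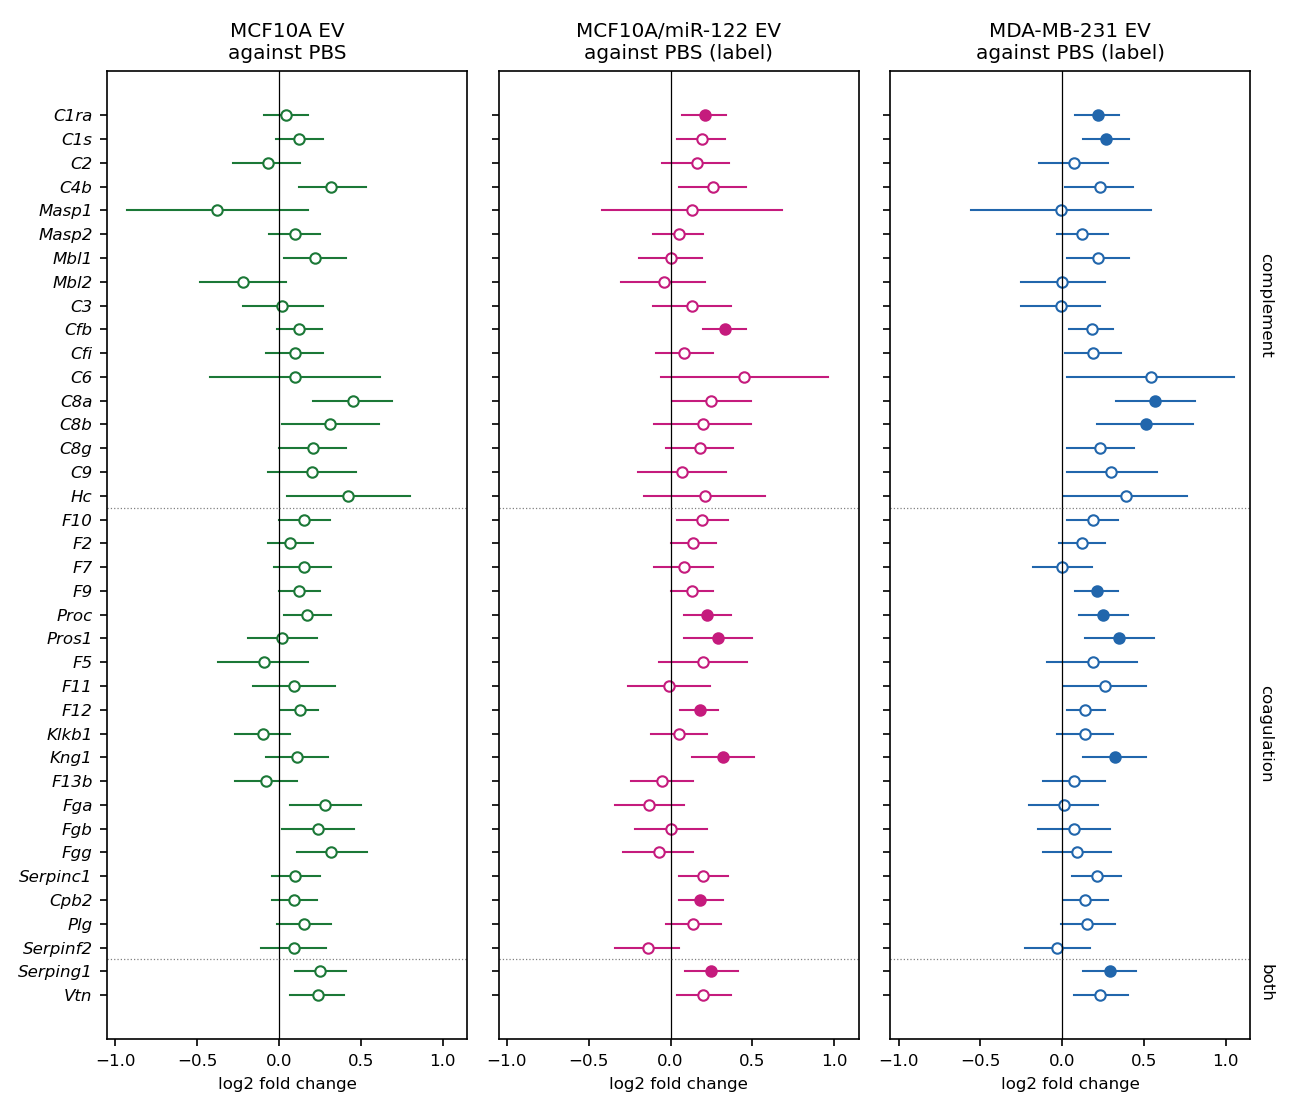
Log2 fold change against PBS of each gene in the 3 EV groups, with 95% confidence intervals, filled where the adjusted p was under 0.05; genes are ordered by role, with complement above the upper dotted line, coagulation between the lines and the 2 genes of both systems below. No gene is filled with MCF10A EV, 8 are with MCF10A/miR-122 EV and 9 with MDA-MB-231 EV, all to the right of 0.

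Among the 8 genes of the classical and lectin routes, those of the C1 proteases moved. C1ra, which encodes the protease that activates C1s, ranged (lowest, median and highest of 6 libraries) over 284, 300 and 307 CPM with PBS, 283, 310 and 334 with MCF10A EV, 284, 350 and 377 with MCF10A/miR-122 EV and 324, 341 and 367 with MDA-MB-231 EV. All 6 MDA-MB-231 EV libraries lay above all PBS libraries, while 1 MCF10A/miR-122 EV library lay just below the lowest of PBS. On the log2 scale C1ra rose by 0.21 (SE 0.06, edgeR adjusted p = 0.0265) with MCF10A/miR-122 EV and by 0.22 (SE 0.06, adjusted p = 0.028) with MDA-MB-231 EV. Its neighbour C1s (C1s1 in the annotation), the protease that cleaves C4 and C2, spanned 375, 418 and 455 CPM with PBS, 413, 448 and 472 with MCF10A EV, 411, 468 and 532 with MCF10A/miR-122 EV and 463, 494 and 538 with MDA-MB-231 EV. The PBS and MDA-MB-231 EV ranges of C1s did not meet, and it rose there by 0.27 (SE 0.07, edgeR adjusted p = 0.0123). With MCF10A/miR-122 EV the value was 0.19 (edgeR adjusted p = 0.059, though DESeq2 called it). Reads of both genes are uncertain, since C1ra shares 59.1% of its 32-base words with C1rb or other genes and C1s 46.7%, mostly with C1s2.

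C4b, the gene of the C4 protein that C1s cuts, was not called by edgeR in any comparison, while DESeq2 called it with MCF10A/miR-122 EV against PBS (adjusted p = 0.0473). It lay at 1350, 1470 and 1670 CPM with PBS, 1400, 1900 and 2210 with MCF10A EV, 1340, 1830 and 1970 with MCF10A/miR-122 EV and 1530, 1770 and 1890 with MDA-MB-231 EV, with 5 of 6 libraries above the PBS median in both MCF10A groups and 6 of 6 with MDA-MB-231 EV. Its log2 fold changes were 0.32 (SE 0.1, edgeR adjusted p = 0.109), 0.26 (adjusted p = 0.0754) and 0.23 (adjusted p = 0.144), and 47.4% of its 32-base words also occur in other genes, chiefly C4a. The lectin genes gave no call: Mbl1 had log2 values of 0.22, 0 and 0.22 against PBS and Mbl2 of -0.22, -0.04 and 0. Masp1, Masp2 and C2 completed this group without a call; 53.3% of the 32-base words of Masp2 are shared with other genes, chiefly Tardbp on the opposite strand. Masp1, the least steady member, spread over 34, 44.7 and 50.1 CPM with PBS, 22.5, 34.2 and 43.1 with MCF10A EV, 14.9, 50.6 and 65.8 with MCF10A/miR-122 EV and 19.4, 41.5 and 58.9 with MDA-MB-231 EV, and its log2 value with MCF10A EV of -0.38 had a 95% interval of -0.93 to 0.18.

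Among the members, Cfb had the smallest p with MCF10A/miR-122 EV. It is the gene of factor B, which supplies the protease of the alternative route C3 convertase. Cfb stood at 1160, 1270 and 1350 CPM with PBS, 1220, 1400 and 1480 with MCF10A EV, 1470, 1570 and 1720 with MCF10A/miR-122 EV and 1370, 1410 and 1510 with MDA-MB-231 EV. The lowest MCF10A/miR-122 EV library was above every PBS library, and so was the lowest MDA-MB-231 EV library. Against PBS, Cfb rose by 0.33 (SE 0.06, edgeR adjusted p = 0.00103) with MCF10A/miR-122 EV and had a log2 value of 0.18 (adjusted p = 0.0712, though DESeq2 called it) with MDA-MB-231 EV and 0.12 (adjusted p = 0.332) with MCF10A EV. It was also higher with MCF10A/miR-122 EV than with MCF10A EV, by 0.21 (SE 0.06, edgeR adjusted p = 0.0281). That second call was lost without any 1 of MCF10A EV replicates 4 and 5 or MCF10A/miR-122 EV replicates 3 and 6, and in the fit of only the 12 libraries compared. With library totals the first of these was 0.23 (adjusted p = 0.00953). Read-through transcript models join Cfb to C2, 88 bases away, and 75.4% of Cfb's 32-base words occur in them or in other genes. C2 itself was not called, with 0.16 (adjusted p = 0.295) with MCF10A/miR-122 EV.

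C3 was not called by edgeR in any comparison. Its levels were 7670, 8030 and 9730 CPM with PBS, 6550, 8440 and 10000 with MCF10A EV, 6220, 9250 and 11500 with MCF10A/miR-122 EV and 6930, 8610 and 9000 with MDA-MB-231 EV, with wide overlap of all groups. The log2 fold changes against PBS were 0.02, 0.13 and -0.01 (edgeR adjusted p = 0.94, 0.476 and 0.963), with 95% intervals of -0.22 to 0.27, -0.11 to 0.37 and -0.25 to 0.23. Cfi, the gene of the protease that inactivates C3b and C4b, was not called either.

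Of the members called against PBS, 2 terminal genes had the largest fold changes. C8a, the alpha chain of C8, a part of the membrane pore, lay at 225, 291 and 304 CPM with PBS, 286, 352 and 469 with MCF10A EV, 279, 336 and 362 with MCF10A/miR-122 EV and 356, 390 and 515 with MDA-MB-231 EV. With MDA-MB-231 EV all 6 libraries were above the PBS range, and with MCF10A EV 5 of 6 were. Its log2 fold change was 0.57 (SE 0.11, edgeR adjusted p = 0.00219) with MDA-MB-231 EV, 0.45 (SE 0.11, adjusted p = 0.0515) with MCF10A EV and 0.25 (adjusted p = 0.131) with MCF10A/miR-122 EV. MDA-MB-231 EV replicate 2 was far above the others of its group at 515 CPM, and the call held without it.

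C8b, the beta chain, lies 11131 bases from C8a. It ranged over 70.9, 89.3 and 121.9 CPM with PBS, 97, 112 and 137 with MCF10A EV, 68.3, 106 and 134 with MCF10A/miR-122 EV and 112, 120 and 178 with MDA-MB-231 EV, so that the PBS and MDA-MB-231 EV ranges overlapped at their edges. It rose by 0.51 (SE 0.14, edgeR adjusted p = 0.0219) with MDA-MB-231 EV. With library totals, or without PBS replicate 1, PBS replicate 2 or MDA-MB-231 EV replicate 2, C8b was not called with MDA-MB-231 EV. The third chain, C8g, which is encoded elsewhere in the genome, had a value of 0.23 there (adjusted p = 0.12; called in the fit of only the 12 libraries compared). The ratio of C8a to C8b kept to medians of 3.06, 3.25, 2.94 and 3.14 over the 4 groups in the order used above. C9, which forms most of the pore, had 0.3 (adjusted p = 0.134) and C6 0.54 (adjusted p = 0.153) with MDA-MB-231 EV; C6 rested on as few as 120 counts in a library.

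Hc RNA was detected in all 24 livers. It was at 203, 267 and 352 CPM with PBS, 264, 369 and 554 with MCF10A EV, 240, 287 and 487 with MCF10A/miR-122 EV and 299, 350 and 472 with MDA-MB-231 EV. The groups overlapped widely, and 1 MCF10A EV library, replicate 5, was the highest of all at 554 CPM. No comparison called it, with log2 fold changes against PBS of 0.42, 0.21 and 0.39 (SE 0.18 each, edgeR adjusted p = 0.223, 0.451 and 0.166). The RNA level says nothing of C5 protein in this strain. All 6 terminal genes were above 0 in each of the 3 comparisons with PBS, with 0, 0 and 2 of them called.

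**Figure D3:**
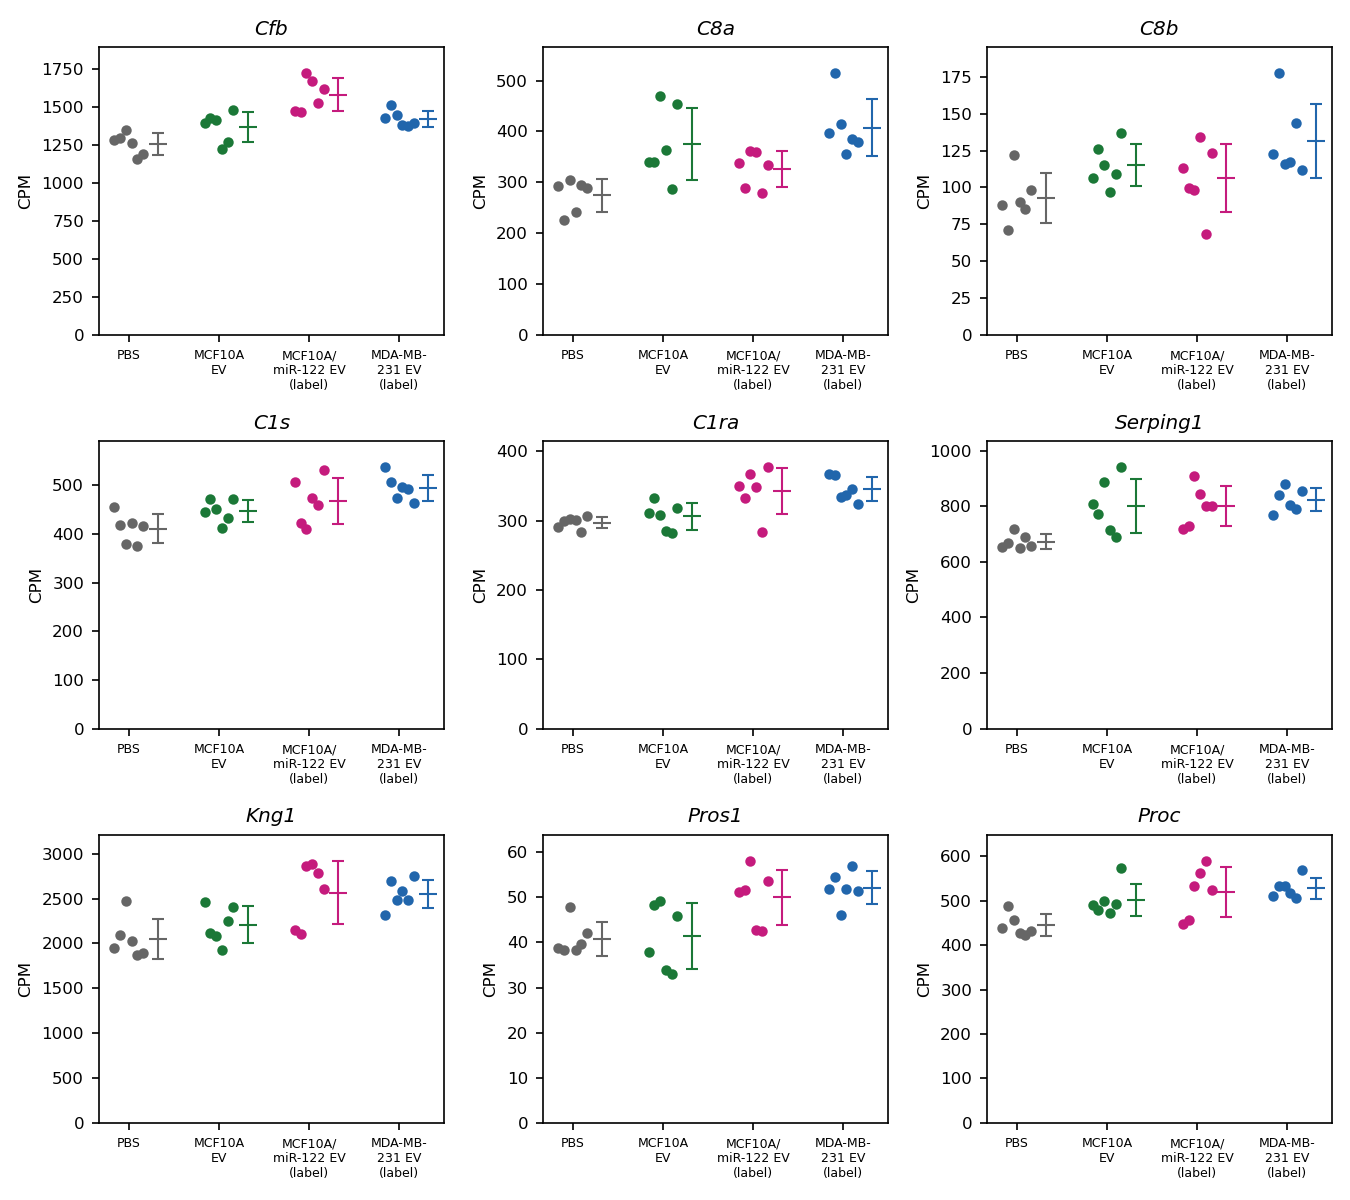
CPM of 9 genes by library in the 4 groups by label (points), with the mean and SD of 6 libraries beside them. For Cfb the MCF10A/miR-122 EV points, at 1470 to 1720, lie above all PBS points and overlap those of the other EV groups, and for C8a all MDA-MB-231 EV points, from 356 up, lie above the PBS points.

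The promoters of the C8 pair are shown because the 2 genes lie side by side and both rose with MDA-MB-231 EV. The sequences are the 250 bases before each start in RefSeq's mouse build GRCm38.p6, at chr4:104876399-104876648 (minus strand) and chr4:104766067-104766316 (plus strand), written 5′ to 3′ along the gene. Capitals mark matches, on either strand, to GTTAAT (the core of sites of the hepatocyte factor HNF1), TTCNNNGAA (the STAT pattern) and CTGGGAA (the core of the interleukin-6 response element, a pattern that can overlap the STAT one).
C8a: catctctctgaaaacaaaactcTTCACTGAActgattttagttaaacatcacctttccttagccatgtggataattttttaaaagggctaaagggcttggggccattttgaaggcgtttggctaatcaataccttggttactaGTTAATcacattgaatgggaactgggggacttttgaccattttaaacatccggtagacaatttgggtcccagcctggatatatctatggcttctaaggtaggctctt
C8b: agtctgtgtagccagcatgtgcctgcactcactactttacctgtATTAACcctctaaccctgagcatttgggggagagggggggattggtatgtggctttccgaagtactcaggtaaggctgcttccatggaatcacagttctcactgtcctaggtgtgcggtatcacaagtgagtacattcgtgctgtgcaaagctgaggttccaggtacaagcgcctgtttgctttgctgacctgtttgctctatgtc
C8a held a STAT pattern 228 to 220 bases before the start and GTTAAT at 107 to 102, and C8b held GTTAAT on the opposite strand at 206 to 201. Over all 32851 promoters of this table, GTTAAT occurred in 6.43%, TTCNNNGAA in 7.02% and CTGGGAA in 9.1%. The table held 29 of the 38 members, of which 8, 6 and 5 had these patterns. A member was counted if any of its promoters matched, whereas the shares are per promoter, so the units differ. A match describes letters only.

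Of the 6 vitamin K-dependent genes, 3 rose with MDA-MB-231 EV and 2 with MCF10A/miR-122 EV, where 5.33% and 8.35% of all genes were called higher. Proc encodes protein C and Pros1 its cofactor protein S, which together shut down clotting by cleaving the activated factors V and VIII. Proc was at 424, 436 and 488 CPM with PBS, 473, 492 and 574 with MCF10A EV, 449, 529 and 589 with MCF10A/miR-122 EV and 505, 526 and 570 with MDA-MB-231 EV. All MDA-MB-231 EV libraries lay above the PBS range, and 4 of 6 did in each of the other EV groups. It rose by 0.22 (SE 0.07, edgeR adjusted p = 0.0281) with MCF10A/miR-122 EV and by 0.25 (SE 0.07, adjusted p = 0.0218) with MDA-MB-231 EV.

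Pros1 was the lowest of the coagulation genes per kilobase. Its levels were 38.3, 39.2 and 47.9 CPM with PBS, 33, 41.9 and 49.2 with MCF10A EV, 42.5, 51.5 and 58 with MCF10A/miR-122 EV and 46, 51.8 and 56.9 with MDA-MB-231 EV. The ranges of all groups overlapped, though every library of the last 2 groups was above the PBS median. It rose by 0.29 (SE 0.1, edgeR adjusted p = 0.0431) with MCF10A/miR-122 EV and by 0.35 (SE 0.1, adjusted p = 0.0225) with MDA-MB-231 EV, and MCF10A EV gave 0.02 (adjusted p = 0.94). Pros1 was the 1 member called between MDA-MB-231 EV and MCF10A EV (7.68% of all genes were called), at 0.33 (SE 0.1, edgeR adjusted p = 0.0403). The count was 2 without MCF10A EV replicate 3. The Pros1 call was lost with library totals, where Fga was called lower in its place, in the fit of only the 12 libraries compared, and without any 1 of MCF10A EV replicates 1, 4 and 5 or MDA-MB-231 EV replicates 1, 2, 4, 5 and 6.

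F9, the gene of the haemophilia B factor, rose with MDA-MB-231 EV. It lay at 167, 176 and 181 CPM with PBS, 167, 190 and 221 with MCF10A EV, 178, 193 and 202 with MCF10A/miR-122 EV and 193, 203 and 213 with MDA-MB-231 EV. The PBS libraries were tight, and all MDA-MB-231 EV libraries were above them. The change was 0.21 (SE 0.06, edgeR adjusted p = 0.0251). The genes of prothrombin (F2), factor VII (F7) and factor X (F10) were not called by edgeR in any comparison with PBS, and neither was the cofactor gene F5; DESeq2 called F10 with MCF10A/miR-122 EV. F2 had values of 0.07, 0.14 and 0.12, and the MDA-MB-231 EV value of F7 was 0.

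In the contact system, Kng1, the gene of kininogen, which carries bradykinin and holds the contact proteases on surfaces, was the most abundant and, in the comparisons of the last 2 groups with PBS, had the largest log2 fold change of the 4 contact genes. Kng1 ranged over 1870, 1990 and 2470 CPM with PBS, 1930, 2180 and 2470 with MCF10A EV, 2110, 2700 and 2880 with MCF10A/miR-122 EV and 2320, 2530 and 2750 with MDA-MB-231 EV. The highest PBS library overlapped both of the last groups; 4 of 6 MCF10A/miR-122 EV and 5 of 6 MDA-MB-231 EV libraries were above it. It rose by 0.32 (SE 0.09, edgeR adjusted p = 0.0155) and by 0.32 (SE 0.09, adjusted p = 0.0248), and 25.9% of its 32-base words occur in other genes, chiefly Kng2. The steady gene F12 was at 453, 467 and 485 CPM with PBS, 463, 521 and 547 with MCF10A EV, 496, 523 and 576 with MCF10A/miR-122 EV and 503, 516 and 535 with MDA-MB-231 EV. The last 2 groups lay above all PBS libraries, and F12 rose by 0.18 (SE 0.05, edgeR adjusted p = 0.0271) with MCF10A/miR-122 EV and had 0.14 (adjusted p = 0.0826, though DESeq2 called it) with MDA-MB-231 EV. F11 and Klkb1, neighbours on chromosome 8, were not called by edgeR. Klkb1 was called between MDA-MB-231 EV and MCF10A EV by DESeq2 and with the replicate block (edgeR without the block gave 0.24, adjusted p = 0.0648), and 43.2% of its 32-base words are shared, chiefly with Gm45753, which overlaps it.

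Fibrinogen gave a different pattern, with its high values in the MCF10A EV group. Fga and Fgb, which encode the alpha and beta chains, are described here because of their values, while Fgg, the gamma chain, met the rule for named genes. Fga was at 3290, 4100 and 4260 CPM with PBS, 3620, 5070 and 5420 with MCF10A EV, 2960, 3550 and 4130 with MCF10A/miR-122 EV and 3480, 4040 and 4400 with MDA-MB-231 EV. Fgb was at 3370, 3940 and 4430 CPM with PBS, 3700, 5030 and 5220 with MCF10A EV, 3430, 3720 and 4800 with MCF10A/miR-122 EV and 3680, 4210 and 4470 with MDA-MB-231 EV. Fgg was at 2770, 3280 and 3600 CPM with PBS, 3300, 4270 and 4640 with MCF10A EV, 2640, 2870 and 3830 with MCF10A/miR-122 EV and 3050, 3520 and 3810 with MDA-MB-231 EV. In MCF10A EV livers, replicates 1, 2, 3 and 6 summed to 14385 to 15163 CPM over the 3 genes, above every PBS library (9432 to 12243), whereas replicates 4 and 5 summed to 11634 and 10623.

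Against PBS the MCF10A EV group did not pass the test for any chain. The log2 fold changes were 0.28 for Fga (SE 0.1, edgeR adjusted p = 0.159), 0.24 for Fgb (adjusted p = 0.241) and 0.32 for Fgg (adjusted p = 0.12). The MCF10A/miR-122 EV values against PBS were -0.13, 0 and -0.07, and none passed. Between these 2 EV groups, 3 members (7.89%) were called, a lower share than the 16.2% of all genes: Fga was lower with MCF10A/miR-122 EV by a log2 fold change of -0.41 (SE 0.1, edgeR adjusted p = 0.00686), Fgg by -0.40 (SE 0.1, adjusted p = 0.00988), and Cfb was higher, as given above. Fgb had -0.24 (adjusted p = 0.121). The Fga and Fgg calls held with library totals (-0.40 and -0.39) and without any 1 library, but in the fit of only the 12 libraries compared Fga alone was called; the count of members called rose to 5 without MCF10A EV replicate 3 or MCF10A/miR-122 EV replicate 4 and to 6 without MCF10A/miR-122 EV replicate 5. This comparison crosses the 2 sets of libraries.

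Ratios between the 3 chains are given without a test, and MCF10A EV and MCF10A/miR-122 EV lie in different sets of libraries. Fgg over Fgb was 0.835 to 0.913 with MCF10A EV and 0.761 to 0.814 with MCF10A/miR-122 EV, without overlap, against 0.781 to 0.875 with PBS and 0.802 to 0.872 with MDA-MB-231 EV. Fga over Fgb had medians of 0.992, 1.02, 0.917 and 0.973 over the groups in the order used above, with overlapping ranges. F13b, the carrier subunit of the factor that crosslinks fibrin, was not called, and its values against PBS ran from -0.08 to 0.07.

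Levels of acute phase genes outside the membership were ordered differently from fibrinogen. Saa1, the gene of serum amyloid A1, was at 339 to 824 CPM with MCF10A/miR-122 EV and at 16.2 to 80.6 over the other 18 libraries. Hp, the gene of haptoglobin, was at 1580 to 2010 with PBS, 2380 to 3260 with MCF10A EV, 2680 to 3770 with MCF10A/miR-122 EV and 2210 to 3050 with MDA-MB-231 EV. Lcn2, the gene of lipocalin 2, was at 5.94 to 12.1, 14.5 to 24.7, 23 to 50.7 and 8.41 to 20.2 CPM in these groups. Of the 4 acute phase genes (these and Saa2), 2 were called higher with MCF10A EV than with PBS, where 0.37% of all genes were. Fibrinogen values were higher in that comparison too, without a call. The group with the highest Saa1 and Hp therefore had the lowest median fibrinogen sum, 10124 CPM, against 11164 with PBS, 14512 with MCF10A EV and 11768 with MDA-MB-231 EV.

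**Figure D4:**
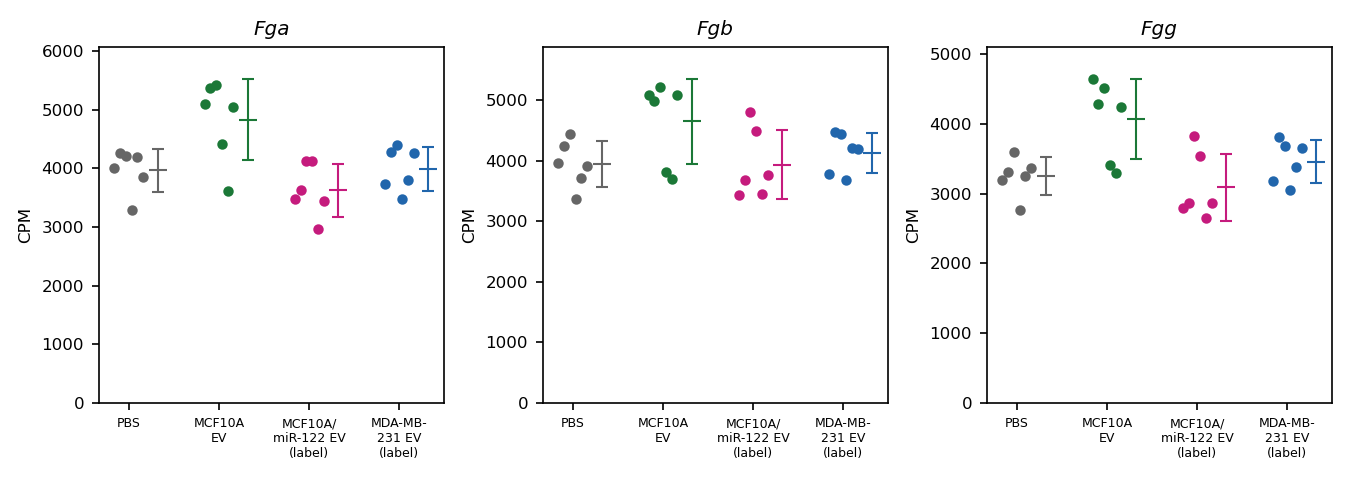
CPM of the 3 fibrinogen genes by library in the 4 groups by label (points), with the mean and SD of 6 libraries beside them. In each panel 4 MCF10A EV libraries stand above the rest of their group, and the MCF10A/miR-122 EV libraries of Fga, at 2960 to 4130, reach lowest.

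The fibrinogen promoters are shown because the genes lie in 1 cluster on chromosome 3, Fga 8619 bases from Fgb and 11097 from Fgg, and 2 of the 3 were called between the same groups. They are the 250 bases before each start in GRCm38.p6 from RefSeq, at chr3:83025903-83026152 (plus strand), chr3:83049864-83050113 (minus strand) and chr3:83007474-83007723 (plus strand). Capitals mark the same 3 patterns as for C8.
Fga: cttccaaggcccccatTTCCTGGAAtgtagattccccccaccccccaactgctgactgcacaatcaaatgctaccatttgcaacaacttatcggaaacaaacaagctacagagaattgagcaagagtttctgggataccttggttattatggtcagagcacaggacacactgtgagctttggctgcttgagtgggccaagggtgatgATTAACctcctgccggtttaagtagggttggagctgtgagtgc
Fgb: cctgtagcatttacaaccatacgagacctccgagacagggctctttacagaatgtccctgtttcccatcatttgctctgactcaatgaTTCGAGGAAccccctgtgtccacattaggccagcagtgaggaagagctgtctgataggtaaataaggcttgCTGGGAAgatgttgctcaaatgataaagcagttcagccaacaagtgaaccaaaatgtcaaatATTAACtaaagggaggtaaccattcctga
Fgg: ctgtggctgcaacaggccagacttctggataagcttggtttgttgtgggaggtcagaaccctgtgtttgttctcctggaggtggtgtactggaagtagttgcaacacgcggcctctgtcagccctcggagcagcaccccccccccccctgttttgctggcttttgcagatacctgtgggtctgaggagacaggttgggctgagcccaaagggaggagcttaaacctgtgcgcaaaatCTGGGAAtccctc
Fga held a STAT pattern at 234 to 226 bases before the start and GTTAAT on the opposite strand at 43 to 38. Fgb held all 3 patterns, the STAT one at 162 to 154, CTGGGAA at 91 to 85 and GTTAAT on the opposite strand at 29 to 24. In the Fgg window the 1 match was CTGGGAA at 13 to 7. Another pattern, TTNNGNAA, as bound by C/EBP factors, is left in lower case. It occurred in any promoter of 13 of the 29 members and in 36.8% of all promoters.

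Of the antithrombin and fibrinolysis genes (Serpinc1, Plg, Serpinf2 and Cpb2), Cpb2 was the 1 called, near the threshold. It encodes a carboxypeptidase that protects fibrin from plasmin. Cpb2 was at 280, 294 and 318 CPM with PBS, 276, 327 and 333 with MCF10A EV, 306, 332 and 387 with MCF10A/miR-122 EV and 310, 325 and 355 with MDA-MB-231 EV, with overlap of PBS and the last 2 groups, and had a log2 fold change of 0.18 (SE 0.06, edgeR adjusted p = 0.0476) with MCF10A/miR-122 EV. This call was lost without any 1 of 20 of the 24 libraries and in 5 of 9 other settings, library totals and the replicate block among them, with adjusted p of 0.0154 to 0.295 over the settings. Serpinc1, the gene of antithrombin, was at 2040, 2180 and 2310 CPM with PBS, 2090, 2350 and 2550 with MCF10A EV, 2160, 2540 and 2760 with MCF10A/miR-122 EV and 2420, 2500 and 2720 with MDA-MB-231 EV. The MDA-MB-231 EV libraries all lay above the PBS range, but its log2 values of 0.20 (edgeR adjusted p = 0.0525) with MCF10A/miR-122 EV and 0.21 (adjusted p = 0.0516) with MDA-MB-231 EV did not pass, while DESeq2 and limma-voom called it in both. Of its 32-base words 35.4% are shared with other genes, chiefly Zbtb37 on the opposite strand, and of those of Plg 10.6%, chiefly with Slc22a3, likewise opposite. Plasminogen (Plg) and its inhibitor gene Serpinf2 were not called, with Plg at 0.15, 0.14 and 0.15 and Serpinf2 at 0.09, -0.14 and -0.03 against PBS.

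Serping1, the C1 inhibitor, blocks C1r, C1s and the lectin proteases as well as factor XII and kallikrein. It was at 650, 663 and 718 CPM with PBS, 688, 790 and 940 with MCF10A EV, 718, 800 and 908 with MCF10A/miR-122 EV and 770, 822 and 880 with MDA-MB-231 EV. The MDA-MB-231 EV libraries lay wholly above PBS, as did 5 of 6 MCF10A/miR-122 EV and 4 of 6 MCF10A EV libraries. It rose by 0.25 (SE 0.08, edgeR adjusted p = 0.0233) with MCF10A/miR-122 EV and by 0.29 (SE 0.08, adjusted p = 0.0133) with MDA-MB-231 EV, and MCF10A EV gave 0.25 (adjusted p = 0.0955). Vtn, the gene of vitronectin, which binds the terminal complement complex, was at 1870, 1980 and 2230 CPM with PBS, 2130, 2320 and 2700 with MCF10A EV, 2030, 2300 and 2620 with MCF10A/miR-122 EV and 2200, 2330 and 2620 with MDA-MB-231 EV. All 18 EV libraries were above the PBS median, but edgeR called it in no comparison (0.24, 0.20 and 0.23, edgeR adjusted p = 0.129, 0.0766 and 0.0538). DESeq2 called it in both of the last 2 comparisons, and limma-voom and the fit of only the 12 libraries compared did with MDA-MB-231 EV.

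By class, the calls against PBS fell on both systems. With MCF10A/miR-122 EV, 2 of 17 complement genes and 5 of 19 coagulation genes rose; with MDA-MB-231 EV, 4 of 17 and 4 of 19 rose; Serping1 made up the rest of each count. Of all genes 8.35% and 5.33% were called higher in these comparisons, and 17.9% and 11.7% in either direction. Over all 38, 2 members had an MCF10A/miR-122 EV range wholly above PBS (Cfb and F12), where 2.4% of all genes did. With MDA-MB-231 EV there were 9 (C1ra, C1s, Cfb, C8a, F9, Proc, F12, Serpinc1 and Serping1), where 2.98% of all genes did. No member was wholly below PBS in either.

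Summed levels are ruled by a few genes. The 17 complement genes summed to 14081, 14311 and 16452 CPM with PBS, 13159, 15833 and 17286 with MCF10A EV, 12954, 16669 and 19397 with MCF10A/miR-122 EV and 13948, 15959 and 17273 with MDA-MB-231 EV. Without C3 the medians were 6346, 7201, 7346 and 7345 CPM, with all libraries of the last 2 groups and 5 of 6 MCF10A EV libraries above the PBS range. The 19 coagulation genes summed to 21454, 23016 and 25204 CPM with PBS, 22934, 28020 and 28765 with MCF10A EV, 22262, 23356 and 27535 with MCF10A/miR-122 EV and 23831, 25292 and 26849 with MDA-MB-231 EV. Without fibrinogen their medians were 12092, 13126, 13666 and 13623 CPM. The 6 MDA-MB-231 EV libraries lay above all PBS libraries, as did 4 of 6 in each of the other EV groups. As shares of all counts, without scaling factors, the ranges of these groups overlapped that of PBS. Complement without C3 held 0.622 to 0.728% with PBS, 0.66 to 0.762% with MCF10A/miR-122 EV and 0.681 to 0.738% with MDA-MB-231 EV. Coagulation without fibrinogen held 1.13 to 1.4% with PBS and 1.27 to 1.36% with MDA-MB-231 EV. The ratio of complement to coagulation had medians of 0.634 with PBS, 0.581 with MCF10A EV, 0.698 with MCF10A/miR-122 EV and 0.627 with MDA-MB-231 EV, and the ranges overlapped. With C3 and fibrinogen left out the 4 medians were 0.527, 0.548, 0.535 and 0.54.

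**Figure D5:**
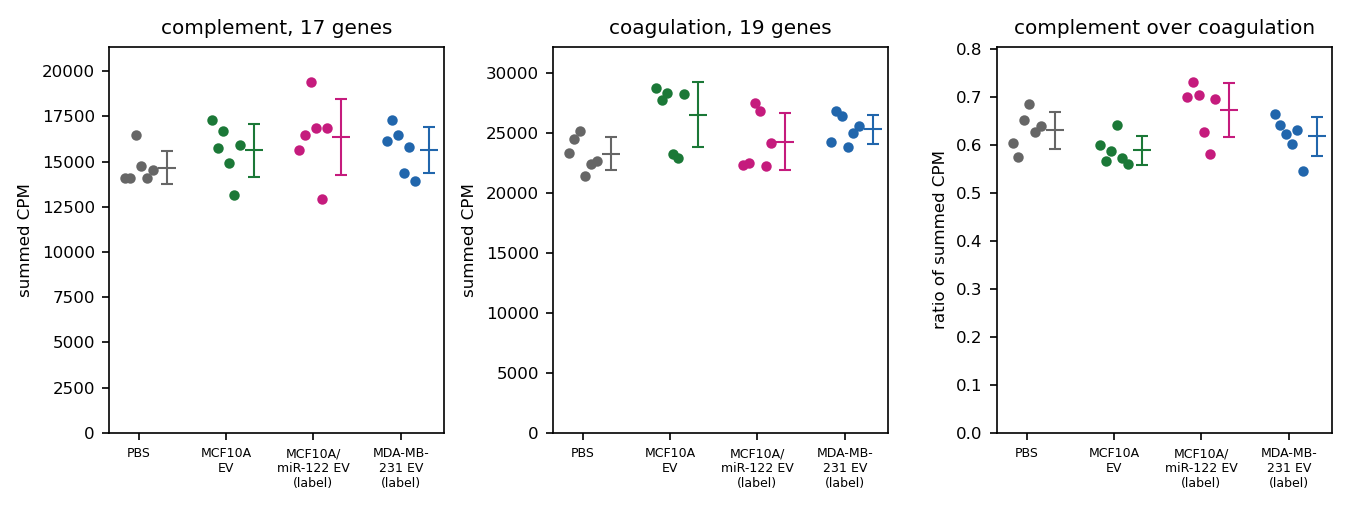
Summed CPM of the 17 complement genes and the 19 coagulation genes, and their ratio, by library in the 4 groups by label (points), with the mean and SD of 6 libraries beside them. The coagulation sum is highest in 4 MCF10A EV libraries, and the ratio has its highest median, 0.698, with MCF10A/miR-122 EV.

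Between the last 2 groups, which lie in 1 set of libraries, no member was called by edgeR's quasi-likelihood test (0.254% of all genes were called) or by DESeq2. At an unadjusted p under 0.05 there were 5 of 38, where 8.19% of all genes reached it. The smallest p-values were those of C8a, with a log2 value of 0.32 (95% interval 0.08 to 0.56, edgeR adjusted p = 0.395), Mbl1 with 0.22 (0.03 to 0.41, adjusted p = 0.473), Cfb with -0.15 (-0.29 to -0.02, adjusted p = 0.507) and F11 with 0.27 (0.02 to 0.52, adjusted p = 0.533). Mbl1 was at 135, 157 and 187 CPM with MCF10A/miR-122 EV and 153, 188 and 212 with MDA-MB-231 EV. F11 was at 72.4, 93.2 and 105 CPM with MCF10A/miR-122 EV and 82.5, 112 and 127 with MDA-MB-231 EV. The ranges of both genes overlapped. With the identities read from the library names these 4 values change sign, since the groups trade places.

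Other genes of the 2 pathways, which are not members, included several that macrophages express. Of 29 further complement genes 26 were tested, and of 29 further coagulation genes 28. With MCF10A EV none was called against PBS, with 3 and 6 at an unadjusted p under 0.05. With MCF10A/miR-122 EV, 4 complement genes rose: Cfp, the gene of properdin, which stabilizes the alternative convertase (0.74, edgeR adjusted p = 0.000713), Vsig4, a complement receptor of liver macrophages (0.62, adjusted p = 0.00307), and the C1q chain genes C1qc (0.47, adjusted p = 0.0153) and C1qb (0.44, adjusted p = 0.0221). Of all genes 8.35% were called higher there and 17.9% in either direction. Cfp was at 18.7 to 22.2 CPM with PBS and at 25.4 to 52.3 with MCF10A/miR-122 EV. All 4 were also higher than with MCF10A EV, and Vsig4 was lower with MDA-MB-231 EV than with MCF10A/miR-122 EV by -0.65 (edgeR adjusted p = 0.0337).

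In the same livers 7 of 11 macrophage markers were called higher with MCF10A/miR-122 EV than with PBS, Vsig4, C1qb and C1qc among the markers. Their summed level was 326 to 760 CPM there, 298 to 370 with PBS, 287 to 342 with MCF10A EV and 251 to 378 with MDA-MB-231 EV. Their part in the 4 changes was not tested.

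Of the coagulation genes outside the membership, Hrg, the gene of histidine-rich glycoprotein, rose with MCF10A/miR-122 EV (0.28, edgeR adjusted p = 0.00855) and with MDA-MB-231 EV (0.23, adjusted p = 0.0381). Hpn, the gene of the membrane protease hepsin, rose with MCF10A/miR-122 EV (0.16, edgeR adjusted p = 0.0498), and F3, the gene of tissue factor, which starts clotting, fell (-0.77, adjusted p = 0.0111) from a low level of 2.74 to 5.85 CPM to 1.91 to 3.56. With MDA-MB-231 EV, Thbd, the gene of thrombomodulin, rose by 0.68 (edgeR adjusted p = 0.0307), and 3 complement genes rose: the C5a receptor gene C5ar1 (0.56, adjusted p = 0.0281), C4bp (0.24, adjusted p = 0.029) and Cpn1 (0.27, adjusted p = 0.0307), where 5.33% of all genes were called higher.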

How the data were processed

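Per the labels, liver RNA of 24 mice, 6 in each of 4 groups, was extracted with TRIZOL and made into Kapa stranded libraries. The authors deposited raw read counts per gene symbol, without normalization. The submitters' processing notes list TopHat2, bcl2fastq 2.18.0.12 and build mm9. For the counting tool, its annotation and its strand setting the entry is: not given in the sources used here. Genes with near copies or overlapping partners are therefore uncertain.

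Counts were tested with edgeR 4.0.16 (quasi-likelihood F test, TMM, filterByExpr by group) in R 4.3.3, with all 24 libraries in 1 fit and a mean per group. The p-values were two-sided and adjusted by Benjamini-Hochberg over the 13773 genes tested, with a threshold of 0.05. The 27 rows with 11 repeated symbols (0.0744% of counts) were left out. Standard errors came from the F statistic. Within-group SDs are of log2(CPM + 0.5). The highest correlation between 2 libraries was 0.9952, and none was a copy. The test was checked on simulated counts, in which every change set was larger than those of the members called against PBS. Changes of the members' size and differences between the sets of libraries were not simulated.

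The members and lists were chosen with earlier results of these data known. Values by library were given for members called, or with the smallest p, within a set of libraries, for the 5 complement, 5 coagulation and any shared members with the smallest p in each comparison of the last 2 groups with PBS, and for Hc. Up to 6 other pathway genes were named per comparison from those called. Alternatives were limma 3.58.1 (voom), DESeq2 1.42.0, other scaling and filters, a replicate block, fewer libraries and the identities of the library names. Promoters are from RefSeq (37 members matched by symbol, 1 through an older symbol), and lengths and shared 32-base words from GENCODE M21, both on GRCm38. Both differ from the build of the counts.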

Additional observations from a re-analysis of the deposited data

Results flagged for a closer look

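Of 84 groups of 6 libraries (21 genes in 4 groups), 2 held a library whose distance to its nearest neighbour was unusually large for the range of the group, and chance gives about 1 in 20. C8a was at 515 CPM in MDA-MB-231 EV replicate 2, against 356 to 415 in the other 5. Proc was at 574 CPM in MCF10A EV replicate 6, against 473 to 499 in the other 5.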

How the results depend on the processing

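The number of members called was compared over 9 other settings and over leaving out each of 24 libraries. RLE scaling, a filter of 1 CPM in every library of a group and limma-voom kept every count within 1.5 times its value. With library totals, 1 member was called with MCF10A/miR-122 EV against PBS and 1 with MDA-MB-231 EV against PBS; complement medians were 0.02, 0.08 and 0.09 and coagulation medians 0, 0.04 and 0.02 for the 3 comparisons with PBS. Without a filter on low counts, MCF10A/miR-122 EV against PBS gave 5. DESeq2 gave 2 for MCF10A EV against PBS, 13 for MCF10A/miR-122 EV against PBS, 5 for MCF10A/miR-122 EV against MCF10A EV and 3 for MDA-MB-231 EV against MCF10A EV. Fits of only the 12 libraries compared gave 2 for MCF10A/miR-122 EV against PBS, 1 for MCF10A/miR-122 EV against MCF10A EV and 0 for MDA-MB-231 EV against MCF10A EV.

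With identities from the library names, MCF10A/miR-122 EV against MCF10A EV gave 1 and MDA-MB-231 EV against MCF10A EV gave 3, with complement medians of 0.1 and -0.01, and -0.08 between these 2 EV groups. In that last comparison C8a became -0.32, Mbl1 -0.22, Cfb 0.15 and F11 -0.27, which follows from the exchange of groups. The counts and medians given here also follow from that exchange. The cause of the shifts in the other settings was not tested.

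Leaving out 1 library gave 0 to 2 calls for MCF10A EV against PBS, 2 to 9 for MCF10A/miR-122 EV against PBS, 4 to 10 for MDA-MB-231 EV against PBS, 2 to 6 for MCF10A/miR-122 EV against MCF10A EV, 0 to 2 for MDA-MB-231 EV against MCF10A EV and 0 for the last pair. Replicate numbers did not pair libraries across groups: deviations of 36 same-numbered pairs correlated at -0.48 to 0.43 (median 0.03), and 5 of 24 libraries correlated best with their own number. With the replicate block, MDA-MB-231 EV against MCF10A EV gave 2 calls, and the other counts stayed within 1.5 times. The lowest count of a member in a library was 120, and the part of depth was not tested.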
